A study of Mus musculus with 18 samples.

Results

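The mouse genome encodes odorant and pheromone receptors in 3 large families. Olfr genes encode odorant receptors of the nasal epithelium, and Vmn1r and Vmn2r genes encode the receptors of the vomeronasal organ. All are receptors with 7 membrane-spanning helices that couple to G proteins, and a mature olfactory sensory neuron as a rule expresses 1 Olfr gene from 1 allele. The genes of all 3 families stand in tandem arrays of close relatives, and a role in blood cells was not examined here. Receptor genes were taken as every gene whose name is Olfr or Vmn followed only by letters and digits. A coding call was a missense, synonymous, stop, frameshift or in-frame change in such a gene. By this rule the exome calls held 47 receptor coding calls at 45 distinct sites in 44 genes, of 1584 coding calls at 1286 sites in 989 genes. The rule uses gene names and annotation and no measured value. All 44 symbols were found in RefSeq (assembly GRCm38.p6), and all 47 calls lay inside the RefSeq interval of their gene.

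The calls came from whole-exome sequencing of genomic DNA of 17 leukemias of 17 mice. The thymus was sampled in 11 of them and the bone marrow in 6. All 17 mice were double transgenic for NP23 (NUP98-PHF23) and NHD13 (NUP98-HOXD13) on the C57Bl6-NIH background, and all were labelled as thymic AML, an acute myeloid leukemia, whichever tissue was sampled. Every call was made against the tail DNA of 1 wild-type C57Bl6-NIH mouse, so variants inherited in the transgenic colony and absent from that mouse are listed beside acquired ones. The promoters that drive the transgenes and the ages of the mice were not given in the sources used here. Mouse numbers end in NN in 9 leukemias (5 thymus, 4 bone marrow) and lack this ending in 8, called plain here (6 thymus, 2 bone marrow). What NN stands for is not stated in the labels, and it was treated as a possible batch. Coding calls numbered 37 to 475 in plain and 27 to 52 in NN leukemias. M18, M19, M22 and M31, all plain thymus, had the most (190, 177, 167 and 475).

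The receptor calls were mostly changes of single bases, carried by few reads. Of the 45 sites, 32 were missense, 6 synonymous, 3 frameshift, 3 in-frame insertions or deletions and 1 a stop. In total 39 sites altered the protein (86.7%, 95% Clopper-Pearson interval 73.2% to 94.9%). Over all coding sites the share was 64.1%. Without sites marked as database variants it was 38 of 43 receptor sites (88.4%, interval 74.9% to 96.1%) beside 76.7% of all such sites. The gap was smaller without the marked sites, of which the receptors had 2 (4.44% of their sites) and the other genes 349 (28.1%). Among calls with an allele fraction under 0.10, 33 of 38 receptor sites (86.8%, interval 71.9% to 95.6%) and 572 of 722 other sites (79.2%, interval 76.1% to 82.1%) altered the protein. Those intervals overlapped. The allele fraction is the share of reads with the variant as the authors' caller estimated it. All intervals cover counting error only. In intervals on reads, PCR copies of a molecule, if they were kept, would count as separate reads. The number of sites, not their protein effect, gives another view: receptors made up 6.67% of the 21900 protein-coding genes of RefSeq, 3.50% of the coding sites and 4.59% of the coding sites without a database mark. These shares take no account of coding length or capture.

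Of the 6 insertions and deletions, the 3 longest are shown by their alleles, as the number of inserted or deleted bases sets the reading frame. The sequences are those of the deposited calls, written 5′ to 3′ on the plus strand of mm10, with the base before the event in lower case and the inserted or deleted bases in capitals. These genes were picked for display after their calls were seen.
Olfr521 insertion: cAGTGTTTGT
Vmn2r1 insertion: cTTGCCTATGAA
Vmn2r29 deletion: tAGTTGGGTGTCC
The Olfr521 insertion in M18 (chromosome 7, position 99767621) adds 9 bases and keeps the frame (A153_W154insVFV), and 4 of 96 reads carried it. The Vmn2r1 insertion in M59 (chromosome 3, position 64104779) adds 11 bases and was annotated as a frameshift with a gained stop (R688fs), in 4 of 266 reads. The Vmn2r29 deletion in M19 (chromosome 7, position 7231787) removes 12 bases in frame (G696_Y700delinsD), in 3 of 180 reads. Of the short events, Olfr585 gained 3 bases (Y189dup) in 3 of 179 reads of M31. A single base was gained in Olfr126 (L252fs, 14 of 307 reads of M57, chromosome 17, position 37851340) and lost in Vmn2r108 (L588fs, 4 of 137 reads of M18). All 6 had allele fractions of 0.012 to 0.051. Insertions and deletions made up 13.3% of receptor sites (interval 5.05% to 26.8%) and 14.3% of other coding sites.

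Allele fractions of the receptor calls ran from 0.012 to 0.488 with a median of 0.033, against a median of 0.086 over all coding calls. Of the 47 calls, 33 lay under 0.05, 6 between 0.05 and 0.10, and 8 (17%, interval 7.65% to 30.8%) at 0.10 or above. Over all coding calls 49.1% reached 0.10. Without database-marked calls 8 of 45 receptor calls (17.8%, interval 8% to 32.1%) reached it, beside 37.1% of all unmarked coding calls. The lower receptor share was thus also present among unmarked calls, where a site listed in several leukemias counts more than once. In other genes the unmarked calls of at least 0.10 were 443 at 215 sites. Among unmarked sites listed in 1 leukemia, 7 of 42 receptor sites and 176 of 832 other sites reached 0.10, a smaller gap. Variant reads per receptor call numbered 3 to 158 with a median of 5, against a median of 6 over all coding calls. In 26 receptor calls (55.3%) there were 5 reads or fewer, as in 46.8% of all coding calls. Without database-marked calls these shares were 57.8% and 57.2%, and among calls under 0.10 they were 64.1% and 83.9%. In 6 of the 47 calls (12.8%) all variant reads had the same read-pair orientation, as in 12.4% of other coding calls. The caller's log odds score for the variant ran from 6.31 to 506.3 with a median of 8.47 in receptor calls, against 11.4 over all coding calls. Without database-marked calls the medians were 8.45 and 8.4, and among calls under 0.10 they were 7.85 and 7.2. In the wild-type tail, 3 receptor sites had variant reads: Vmn2r88 had 2 of 93 reads, Olfr1061 had 1 of 43 and Olfr648 had 1 of 36. These genes were named after their values were seen. The same count for other coding calls is not given here, so it is open whether 3 is unusual. Median depth in the tail was 93 reads at receptor calls and 44 over all coding calls.

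**Figure D1:**
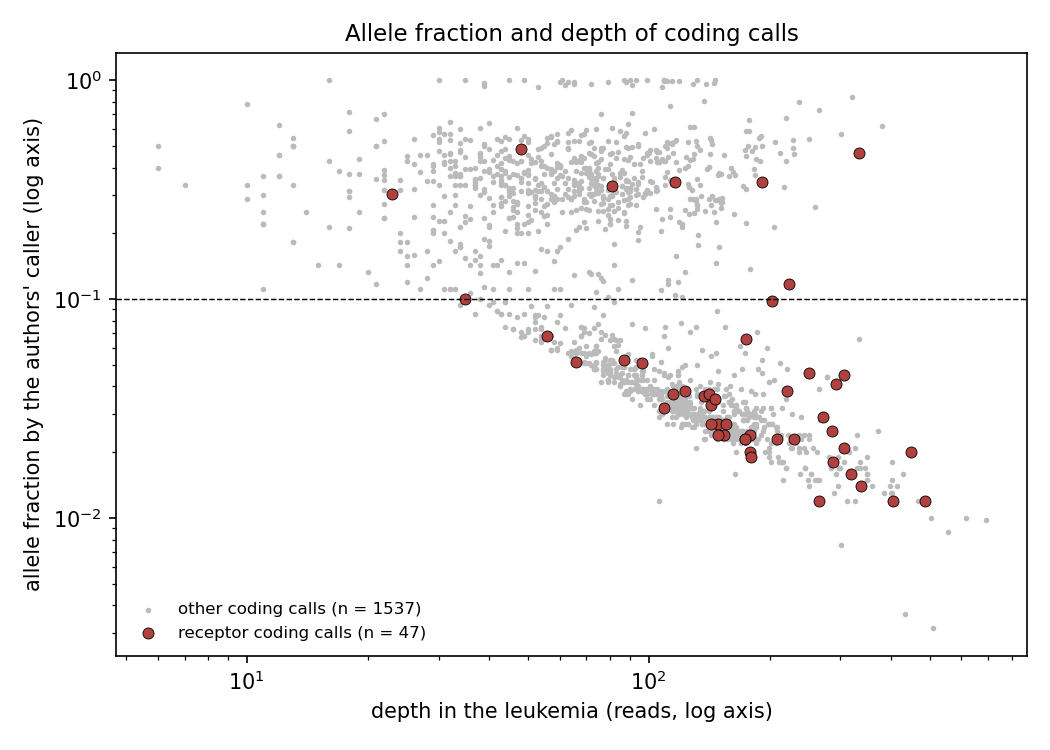
Allele fraction by the authors' caller against the depth in the leukemia for each coding call, both on log axes, with 47 receptor calls in red and 1537 other coding calls in grey; the dashed line marks 0.10. Of the receptor points, 39 lie below the line and 8 on or above it.

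The 8 receptor calls of at least 0.10 fell in 8 genes and 6 leukemias, the eighth being that of Vmn2r103 in M57 described with its site further on. Olfr1153 I45T (chromosome 2, position 87896310, the single exon) was carried by 24 of 48 reads in M22 (50%, interval 35.2% to 64.8%), at an allele fraction of 0.488, the highest of the receptors. The other 6 receptor calls of M22 had fractions of 0.016 to 0.068, so its receptor calls fell far apart. M31 held 3 of the 8. Olfr1280 R122Q (chromosome 2, position 111315845) had 59 of 191 reads (30.9%, interval 24.4% to 38%). Olfr1229 V245I (chromosome 2, position 89282399) had 28 of 81 reads (34.6%, interval 24.3% to 46%), and Olfr1440 L44L, a synonymous change (chromosome 19, position 12394396), had 39 of 116 reads (33.6%, interval 25.1% to 43%). Their allele fractions, 0.342, 0.329 and 0.344, lay close together with overlapping read intervals, and the other 4 receptor calls of M31 were at 0.014 to 0.024.

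In bone marrow, Olfr1310 L301P (chromosome 2, position 112008283) in M60 had 7 of 23 reads (30.4%, interval 13.2% to 52.9%), the lowest depth of all receptor calls. Olfr112 R167I (chromosome 17, position 37563810, exon 3 of 3) in M58 had 23 of 223 reads (10.3%, interval 6.65% to 15.1%). Vmn2r25 F45L (chromosome 6, position 123853058, exon 1 of 6) in M23 had 3 of 35 reads (8.57%, interval 1.8% to 23.1%) and stood at the limit, with a caller's fraction of 0.1. Just below the limit stood Vmn2r103 in M58 at 0.098. None of these 8 calls had a database mark, 6 altered the protein, and the 2 that did not were in Olfr1440 and Vmn2r103. Of unmarked calls with at least this fraction in all genes, 130 of 223 sites (58.3%) altered the protein, within the receptor interval of 34.9% to 96.8%.

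Only 1 receptor site was listed in more than 1 leukemia, a synonymous change in Vmn2r103, T598T (chromosome 17, position 19811759, exon 6 of 6). It was carried by 158 of 334 reads in M57 (47.3%, interval 41.8% to 52.8%), 19 of 203 in M58 (9.36%, interval 5.73% to 14.2%) and 8 of 449 in M59 (1.78%, interval 0.772% to 3.48%). The 3 read intervals did not overlap, and all 3 leukemias were from bone marrow and of the NN series. The wild-type tail had 0 variant reads of 144. With 3 reads taken as the limit, which is not a Clopper-Pearson bound, that allows a share of up to 2.08%. It was the single site listed in exactly these 3 leukemias, while 20 sites were listed in all 3 with or without other leukemias. A further 2 sites were listed in exactly M57 and M58, and 0 in M59 with just 1 of the others. Of 8 sites of M57 with a fraction of at least 0.10 and listed in at most 3 leukemias, 4 were also listed in M58 and 1, the Vmn2r103 site, in M59. Receptor sites listed in 1 leukemia were thus 44 of 45 (97.8%), against 1177 of 1241 (94.8%) in other genes. Vmn2r108 was the only receptor gene with 2 coding sites. Both were in M18, 2 bases apart on chromosome 17 (positions 20463177 and 20463179), in 4 of 137 and 4 of 141 reads, and whether they are the same event was not tested. The remaining 42 genes had 1 call each.

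Calls annotated as truncating a receptor were few and of low fraction. Besides the frameshifts in Olfr126 (4.56% of reads, interval 2.52% to 7.53%), Vmn2r108 and Vmn2r1, the stop S253* in Olfr1389 (chromosome 11, position 49431235) was carried by 4 of 156 reads in M55 (2.56%, interval 0.703% to 6.43%). These 4 sites were 8.89% of receptor sites (interval 2.48% to 21.2%), and the share in other genes was 11.9%. The lowest allele fraction, 0.012, was shared by 3 calls. They were Olfr12 A60V in M18 (6 of 405 reads), Olfr507 T41N in M59 (5 of 486 reads, the deepest receptor call) and the Vmn2r1 insertion.

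By family, Olfr genes had 29 calls, each in a different gene, in 14 leukemias. Of the 29 sites 27 altered the protein, and the exceptions were in Olfr1440 and Olfr818 (G39G, M31). Vmn1r genes had 5 calls in 5 genes and 4 leukemias, 4 missense and 1 synonymous, at fractions of 0.021 to 0.041. Both database-marked receptor calls were in this family, Vmn1r53 Y120C in M57 (12 of 292 reads) and Vmn1r89 S92S in M18 (6 of 230 reads). Vmn2r genes had 13 calls at 11 sites in 10 genes and 8 leukemias, with 8 altering and 3 synonymous sites. Measured against RefSeq, calls fell in 29 of 1107 Olfr genes (2.62%), 5 of 230 Vmn1r genes and 10 of 123 Vmn2r genes (8.13%). Over all RefSeq protein-coding genes it was 954 of 21900 (4.36%), counting called genes whose symbol RefSeq holds. The Vmn2r proteins called here have 849 to 912 residues, the Olfr proteins 305 to 333 and the Vmn1r proteins 299 to 316, and these shares are not corrected for length. Chromosome 7 held 27.3% of the called and 28.5% of all receptor genes of RefSeq, and chromosome 2 held 20.5% and 19.6%. Chromosome 17 held 6 called genes (13.6%) against 6.58% of all receptor genes, and chromosome 9, the third largest set with 129 genes, had 1 called gene (Olfr980).

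Within the proteins, Olfr sites were spread from residue 30 to 313 with a median of 167. All 4 Vmn1r missense changes lay between residues 113 and 127. They were Vmn1r15 A113T (M31), Vmn1r14 A120T (M22), Vmn1r53 Y120C (M57) and Vmn1r204 A127T (M22). In Vmn2r, 9 of 11 sites were in the last of 6 exons, and 5 of the 11 lay in a stretch of 21 residues from 585 to 605, in Vmn2r99, Vmn2r103, Vmn2r108 and Vmn2r112 and in 6 leukemias. Those 5 sites include the neighbouring pair of Vmn2r108 in M18, and 3 of the 6 leukemias share the Vmn2r103 site. The part of the Vmn2r coding length that lies in the last exon was not measured. Residue numbers of different genes were compared without an alignment. Both stretches were noticed after the positions were seen and have no test. Changes of alanine to threonine or valine made up 9 of the 32 missense sites (28.1%, interval 13.7% to 46.7%) and 24.8% of missense sites in other genes. All 9 were in plain leukemias, where they were 37.5% of 24 receptor missense sites (interval 18.8% to 59.4%) and 27.3% of those in other genes. In NN leukemias they were 0 of 8 (interval up to 36.9%) and 11% of those in other genes. C>T changes, counted on either strand, made up 21 of 39 single-base sites (53.8%, interval 37.2% to 69.9%) against 58.6% in other genes. By series they were 20 of 29 receptor sites in plain leukemias (69%, interval 49.2% to 84.7%) and 1 of 10 in NN leukemias (10%, interval 0.253% to 44.5%). Other genes had 61.2% and 42.2%, so both receptors and other genes had the lower share in the NN series. Whether the receptor gap differs from that of other genes was not tested.

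**Figure D2:**
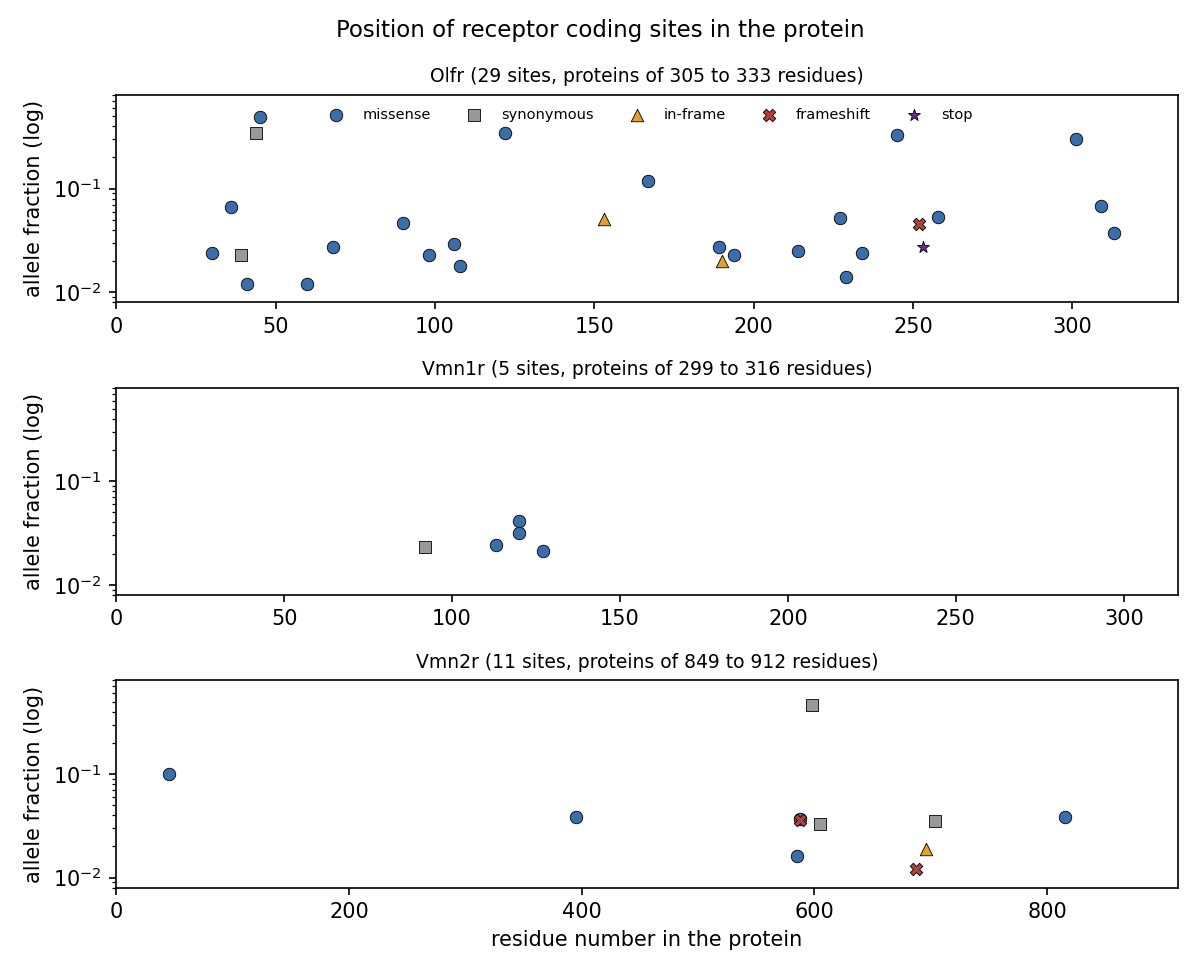
Residue number of each of the 45 receptor coding sites (x axis) against its allele fraction on a log axis, in a panel for each family, with the marker giving the kind of change and the highest fraction shown for the site listed in 3 leukemias. Olfr sites spread along the protein, and the 4 Vmn1r missense sites lie between residues 113 and 127. Of 11 Vmn2r sites, 5 lie between 585 and 605, among them the neighbouring pair of Vmn2r108 in M18.

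Receptor genes, of any of the 3 families, lay near one another in the genome. The nearest other receptor gene lay a median of 13893 bases away for the 44 called genes and 16440 for all 1460 receptor genes, and 40 of the 44 (90.9%, against 91.5% of all) had another receptor gene within 50 kb. Reads from near-identical relatives can be placed on the wrong copy, and the part of this in the calls was not tested. Depth was higher at the receptor calls than at others. In the leukemias the receptor calls had 23 to 486 reads, with a median of 175, against 96 over all coding calls. In the wild-type tail the medians were 93 and 44 reads.

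Receptor and other coding calls were then compared within each leukemia, for the 15 leukemias with a receptor call. Median depth was higher at the receptor calls in 14 of 15, all but M24 (66 against 96 reads), and by a mean of 95.5 ± 89.9 reads (SD, n = 15, p = 0.000366, adjusted p = 0.00256, exact sign-flip permutation test, two-sided). The gap was largest in M59, with 449 against 132 reads at 3 receptor calls, and smallest among the higher ones in M19, with 146 against 141 reads at 8. Among calls under an allele fraction of 0.10 the mean difference was 88.1 ± 86 reads (SD, n = 15, exact sign-flip permutation p = 0.00061). At the same sites in the wild-type tail it was 64.2 ± 64.8 reads (SD, n = 15, exact sign-flip permutation p = 0.000183), though all 15 differences there come from that 1 library. Adjustment was by Benjamini-Hochberg over 7 tests.

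Median allele fraction was lower at receptor calls in 12 of 15 leukemias, M18, M23 and M24 being the exceptions, by a mean of -0.144 ± 0.145 (SD, n = 15, p = 0.00159, adjusted p = 0.00555, exact sign-flip permutation test, two-sided). In the NN leukemias with receptor calls all 7 differences were negative, with a mean of -0.238 ± 0.132 (SD, n = 7, exact sign-flip permutation p = 0.0156, the smallest that 7 leukemias allow). In the plain leukemias the mean was -0.0614 ± 0.103 (SD, n = 8, exact sign-flip permutation p = 0.195). M61 had 0.046 at its 1 receptor call and 0.42 at its other calls, M60 had 0.165 and 0.463, and M31 had 0.024 and 0.304. Sites listed in several leukemias were 1 of 45 for receptors and 64 of 1241 for other genes. With sites listed in 1 leukemia only, the mean difference was -0.0458 ± 0.0917 (SD, n = 15, exact sign-flip permutation p = 0.0646), within the spread between leukemias. Among calls under 0.10 it was -0.00177 ± 0.019 (SD, n = 15, exact sign-flip permutation p = 0.732).

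**Figure D3:**
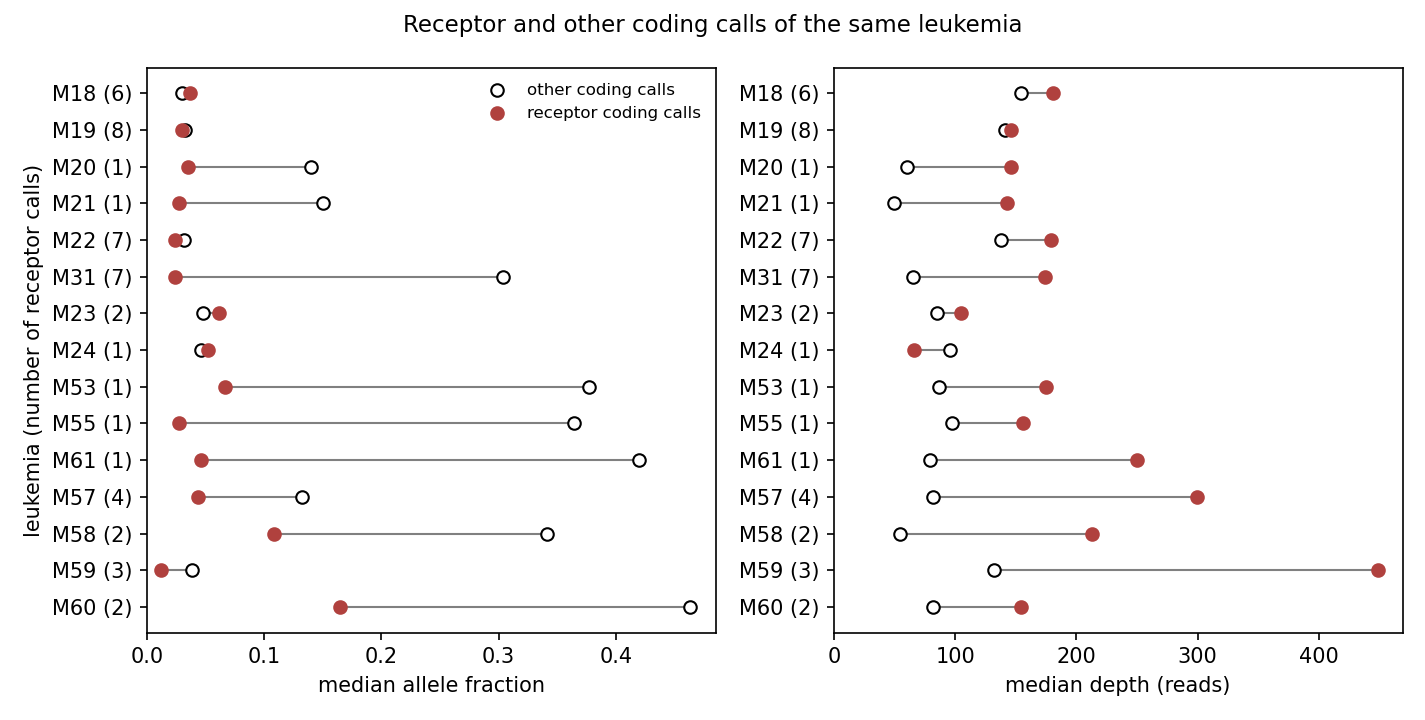
Median allele fraction (left) and median depth in reads (right) of receptor calls (red) and other coding calls (open) in each of the 15 leukemias with a receptor call, whose number stands in brackets. Receptor medians are lower in allele fraction in 12 leukemias and higher in depth in 14.

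M31 had the most coding calls, and most of them carried a database mark (321 of 475). All 7 of its receptor calls were unmarked. Of its 607 marked calls of any kind, 570 lay on chromosomes 1 and 19, where they ran from 93304940 to 165564000 and from 20379615 to 58822112. RefSeq has 0 Olfr, Vmn1r or Vmn2r genes in either span, and Olfr1440, the receptor called in M31 on chromosome 19, lay outside its span. In M31 receptors made up 1.47% of coding calls (interval 0.594% to 3.01%) and 4.55% of unmarked ones. Without M31, marked sites were 5.26% of receptor sites and 3.54% of other coding sites, and protein-altering sites were 89.5% (interval 75.2% to 97.1%) and 79.3%.

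Receptor coding calls per leukemia were compared between tissues. In plain thymus leukemias M18 had 6, M19 had 8, M20 and M21 had 1 each, and M22 and M31 had 7 each. In plain bone marrow M23 had 2 and M24 had 1. In NN thymus M53, M55 and M61 had 1 each and M54 and M56 had 0, and in NN bone marrow M57 had 4, M58 had 2, M59 had 3 and M60 had 2. Over both series thymus had 3 ± 3.22 (SD, n = 11) and bone marrow 2.33 ± 1.03 (SD, n = 6), and the difference of 0.667 was smaller than the SD of either group (p = 0.655, adjusted p = 0.655, exact permutation test, two-sided). The direction differed between the series. In the plain series thymus was higher by 3.5 calls (exact permutation p = 0.357, smallest possible 0.0357). In the NN series thymus was lower by 2.15 calls, 0.6 ± 0.548 (SD, n = 5) against 2.75 ± 0.957 (SD, n = 4), and the groups did not overlap (exact permutation p = 0.00794, the smallest that 126 assignments allow). Leaving out a leukemia cannot make such groups overlap, so it gives no further test of this. The NN bone marrow mice also have nearly consecutive numbers in the labels, while those of the NN thymus mice are spread wider. Tissue in the NN series thus cannot be told apart from a run of neighbouring animals. Among calls under an allele fraction of 0.10 the NN groups overlapped, and the difference was -1.4 (exact permutation p = 0.0794). The tissue difference itself differed between the series by 5.65 calls (p = 0.0147, adjusted p = 0.0344, exact permutation of tissue within series over 3528 assignments). It was 5.15 without M24 (exact permutation p = 0.0522), and 4.9 with sites listed in 1 leukemia only (exact permutation p = 0.0516). Coding calls of all genes differed in the same directions, with means of 182.3 in plain thymus and 82.5 in plain bone marrow. In NN thymus and NN bone marrow their means were 31 and 42.5. The contrast between series was not tested on receptor shares. The Vmn2r103 site supplied 3 of the 11 NN bone marrow calls. Without sites listed in several leukemias the NN means were 0.6 and 2 and the groups overlapped (exact permutation p = 0.0317).

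**Figure D4:**
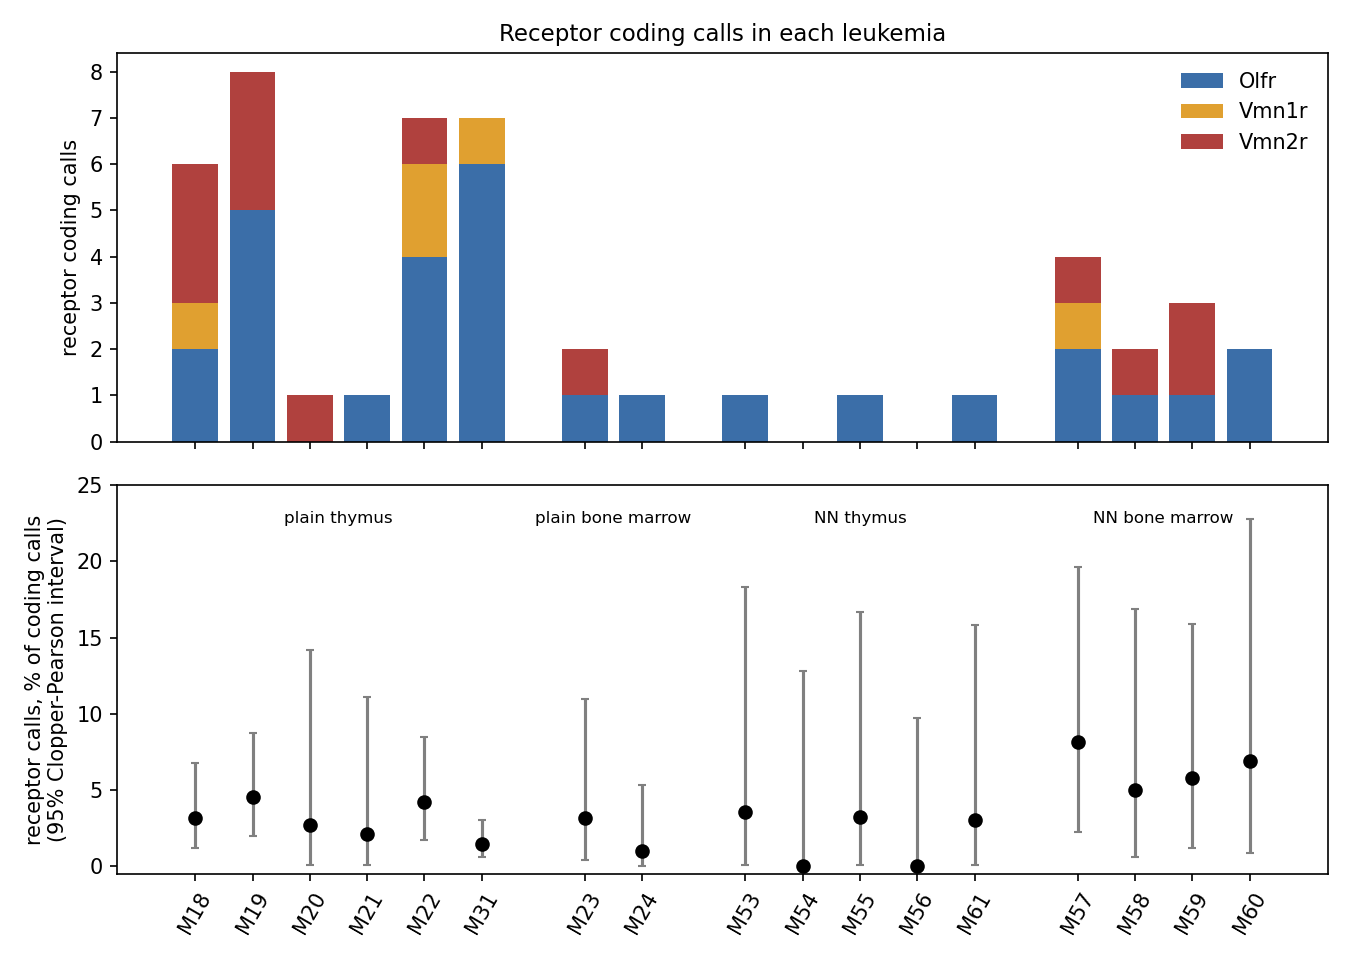
Number of receptor coding calls by family (top, bars) and their percentage of all coding calls with 95% Clopper-Pearson intervals (bottom) in each of the 17 leukemias, arranged by mouse number series and tissue. NN bone marrow leukemias have 2 to 4 calls and NN thymus leukemias 0 or 1, and 4 plain thymus leukemias have 6 to 8.

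The receptor share of coding calls sets these numbers against the calls in all other genes. It was 8.16% in M57, 6.9% in M60, 5.77% in M59 and 5% in M58, the 4 NN bone marrow leukemias and the highest 4 of all. In the NN thymus leukemias it was 3.57% in M53, 3.23% in M55 and 3.03% in M61. In M54 it was 0 of 27 calls and in M56 0 of 36, which allow up to 11.1% and 8.33% when 3 calls are taken as the limit, with Clopper-Pearson upper bounds of 12.8% and 9.74%. Shares in the plain series ran from 0.98% (M24) to 4.52% (M19). Each share rests on few calls, and the interval for M57 was 2.27% to 19.6%. Over both series the share was lower in thymus, 2.54 ± 1.52% (SD, n = 11), than in bone marrow, 5 ± 2.6% (SD, n = 6), by 2.46 percentage points (p = 0.0256, adjusted p = 0.0448, exact permutation test). This comparison was added after the data were seen. It did not pass without M57 (difference -1.82, exact permutation p = 0.0806), M59 (-2.3, exact permutation p = 0.0508) or M60 (-2.08, exact permutation p = 0.0668). NN leukemias alone gave a difference of -4.49 points (exact permutation p = 0.00794), and plain leukemias alone gave 0.944 (exact permutation p = 0.429). With sites listed in 1 leukemia only, the NN difference in share was -10.7 points with overlapping groups (exact permutation p = 0.0635). Among NN calls under an allele fraction of 0.10 the mean shares were 7.86% in thymus and 11.8% in bone marrow, with overlapping groups (exact permutation p = 0.413).

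Between the series, plain leukemias had 4.12 ± 3.14 receptor calls (SD, n = 8) and NN leukemias 1.56 ± 1.33 (SD, n = 9), a difference of 2.57 that did not pass (p = 0.0508, adjusted p = 0.0711, exact permutation test, two-sided). Without M18, M19, M22 and M31, the 4 leukemias with the most coding calls, it was -0.306. They were left out after the data were seen and also had the most receptor calls, so that value has no test. The receptor share of coding calls was 2.79 ± 1.24% in plain (SD, n = 8) and 3.96 ± 2.82% in NN (SD, n = 9), and the difference of -1.18 points was smaller than the SD of either group (p = 0.293, adjusted p = 0.342, exact permutation test). Within thymus the plain series had 4.4 more receptor calls (exact permutation p = 0.0368), and within bone marrow 1.25 fewer (exact permutation p = 0.267, smallest possible 0.0667).

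Coding calls were also counted in other genes of the chemical senses. Of 82 genes for other chemosensory receptors in RefSeq (taste, trace amine, formyl peptide, Ms4a and Gucy2d), 3 had a coding call. They were Tas2r123 L278V in M18 (7 of 165 reads), Gucy2d R665W in M18 (7 of 350 reads) and Taar7a G343D in M21 (4 of 126 reads), a bitter taste receptor, a receptor guanylyl cyclase and a trace amine receptor. Of 19 genes of olfactory and vomeronasal signalling, 1 had a call, Cnga2 A627D in M59 (chromosome X, position 72009400, 4 of 64 reads, 6.25%, interval 1.73% to 15.2%), which encodes a subunit of the cyclic nucleotide-gated channel that olfactory receptors open. The 7 genes of receptor gene choice, among them Lhx2, Ldb1 and Kdm1a, had 0. In lists of this size the counts lie near the 4.36% of all RefSeq protein-coding genes that had a coding call. All 4 calls were missense, without a database mark, at allele fractions of 0.019 to 0.058.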

How the data were processed

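Exome calls of 17 leukemias against 1 wild-type tail were read from the deposited table. Per the submitters' processing notes the tools were bcl2fastq 2.17.1.14, BWA 0.7.17 and GATK (version not given in the sources used here), with the builds mm10 and GRCm38. MuTect2 is named in the labels. Depth and allele reads are counts as deposited, without normalization, per the file headers. The allele fraction and the log odds score are values of the authors' caller, as deposited. A further 25 columns with values per sample were left unused. All rows are marked PASS and lie in the capture baits, and the rows at hand may be a part of the table. Depth at receptor calls was 23 to 486 reads.

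A site is a position with its alleles. Exon numbers that a spreadsheet had turned into dates were read back. Values per leukemia were compared with exact two-sided permutation tests, and receptor with other calls of a leukemia with exact sign-flip tests, in Python 3.11.15 with numpy 2.4.6, pandas 2.3.3 and scipy 1.17.1, and the functions were tested on simulated data. Nothing says how far mice share litters, so p-values measure the spread between these mice. Genes named with values had calls in 2 or more leukemias, 2 or more sites, an unmarked call of at least 0.10, a stop or frameshift, or the 3 highest or 3 lowest fractions. Other receptors were named after their values were seen. The members, lists and tests were chosen with earlier results of these data known. Alternatives were thresholds on allele fraction (0.10, 0.05) and depth (20 reads), database marks, merging of sites within 10 bases, gene names and left-out leukemias.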

Additional observations from a re-analysis of the deposited data

Results flagged for a closer look

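The tissue difference in receptor coding calls differed between the mouse number series by 5.65 calls (exact permutation p = 0.0147), being positive in the plain and negative in the NN series. This contrast did not pass without M24 (exact permutation p = 0.0522) or with sites listed in 1 leukemia only (exact permutation p = 0.0516). Mean coding calls of all genes differed between tissues in the same directions. In the plain series, the difference between receptor and other calls in median allele fraction was -0.28 in M31, and the next lowest value was -0.123 (n = 8). The gap between them only narrowly passed the limit used for a separate value. Of 12 groups examined for such a value this was the only one. Chance gives about 1 in 20 for each group, so 1 among 12 is not more than chance can give. Most coding calls of M31 carried a database mark, and its difference without them is not given here.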

How the results depend on the processing

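Direction and side of the threshold held for the depth difference within leukemias under all 9 alternatives (43.8 to 154.6 reads) and with any 1 leukemia left out (79.7 to 104.5). The protein-altering share of receptor sites stayed between 75% and 88.4% under 5 alternatives and between 84.2% and 89.5% with 1 leukemia left out. The allele fraction difference lay between -0.155 and -0.128 with 1 leukemia left out. It did not pass with sites of 1 leukemia only (-0.0458), under 0.10 (-0.00177) or in the plain series (-0.0614). The tissue difference in calls changed sign at fractions of at least 0.10 (-0.303) and 0.05 (-0.273), in the NN series (-2.15) and without M18, M19, M22 and M31 (-1.62), and was 0.167 to 1 with 1 leukemia left out. These 4 were chosen after seeing the data and have the most receptor calls of all, so leaving them out sets the sign and is no test. The plain minus NN difference passed without database-marked rows (2.56, exact permutation p = 0.0446), with sites of 1 leukemia only (2.9) and within thymus (4.4). It changed sign without those 4 leukemias (-0.306) and within bone marrow (-1.25). With 1 leukemia left out it was 2.02 to 3.02, and passed without M20, M21, M23, M24, M57 or M59. In share it changed sign within thymus (1.06), and was -1.67 to -0.651 with 1 leukemia left out. The tissue difference in share changed sign in the plain series (0.944) and was -3.26 to -1.82 with 1 left out. The contrast between series was 4.9 with sites of 1 leukemia only and 5.05 to 6.45 with 1 left out. The cause of these changes was not tested. Receptor calls rest on a median of 5 variant reads, and coding calls of all genes on 6. How far depth limits the calls, and the lowest fraction that could be called, were not tested. No paired analysis was possible between tissues or series because each leukemia comes from a different mouse and the labels give no replicate numbers, the numbers used here only following sample order. Counting hyphenated names added 0 coding calls.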
